A study of Mus musculus with 44 samples.

Results

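The genes described are 10 components of cyclic AMP (cAMP) signalling to the transcription factor CREB, picked by symbol from the 55335 genes of a TRAP-seq count table of mouse hippocampus. They comprise the CREB family (Creb1, Crem and Atf1), the CREB-regulated co-activators (Crtc1, Crtc2 and Crtc3), a catalytic subunit of protein kinase A (Prkaca), the cAMP phosphodiesterases Pde4b and Pde4d, and the CREB kinase Rps6ka3. All 10 were found and all 10 passed the filter on low counts in each comparison. TRAP-seq (translating ribosome affinity purification) reads mRNA bound to tagged ribosomes, so that each value is a level of ribosome-associated mRNA rather than of protein or of phosphorylated protein. Every library came from a male Emx1-NuTRAP mouse, in which Cre made from the Emx1 locus switches on tags on the ribosome and on the envelope of the nucleus, chiefly in excitatory neurons of the forebrain. Mice with early-life exercise (ELE) had a running wheel from postnatal day 21 to 41 and sedentary mice had none. RNA was captured either with nuclei from both hippocampi combined (simultaneous isolation, SIT, with 4 ELE and 4 sedentary mice) or by itself from 1 hippocampus (separate isolation, with 3 ELE and 3 sedentary mice for the left and as many for the right).

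CREB sits at the end of the cAMP cascade. Adenylyl cyclases make cAMP, which frees the catalytic subunits of protein kinase A, and phosphodiesterases such as PDE4B and PDE4D break cAMP down. CREB, bound at cAMP response elements (CREs) in promoters, is activated when kinases phosphorylate it, among them protein kinase A and RSK2, the product of Rps6ka3. The CRTC proteins enter the nucleus once calcineurin has removed phosphates placed on them by salt-inducible kinases, and then raise transcription by CREB. In the hippocampus the pathway is best known for turning neuronal activity into transcription that long-term memory needs.

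A CRE has the palindrome TGACGTCA at its centre, and the shorter core TGACG, or CGTCA when read on the other strand, is also bound by the CREB family. Reference promoter sequences from RefSeq on GRCm38.p6, each reaching from 250 bases before to 50 bases after a transcription start, were listed for 7 of the 10 genes, with 11 entries between them. Rps6ka3, Crtc2 and Crem had no entry. The palindrome was in 0 of the 11 entries and in 1.79% of all 32851 entries of that length. The 5-base core, which every palindrome also contains, was in 3 of the 11 entries and in 20.8% of all. The stretches around it are shown because they are where the letters of the element occur in these 11 entries. They are on the forward strand, 5′ to 3′, with the core in capitals.
Atf1, chr15:100227757-100227785, core starting 90 bases before the start: gtgaccacgcggTGACGcagcacgccggc
Pde4b, chr4:102421509-102421537, core starting 34 bases before the start: gatttggctgcaCGTCAattttctcatct
Prkaca, chr8:83972846-83972988, cores starting 120 and 6 bases before the start: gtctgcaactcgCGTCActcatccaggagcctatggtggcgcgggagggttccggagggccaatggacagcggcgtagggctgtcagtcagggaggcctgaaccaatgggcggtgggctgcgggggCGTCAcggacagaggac
These matches describe letters in a reference window and not sites of binding. Pde4b has 4 listed promoters and Prkaca 2, and in each gene 1 of them holds the core. Of these 3 genes, 0 were called between ELE and sedentary mice in the tests below, which called 2.00% to 3.73% of all genes. At such shares 0 of 3 genes is no result about the core.

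Between 45895097 and 65767802 counts fell on genes per library. The markers of excitatory neurons Slc17a7, Neurod6, Camk2a, Emx1 and Prox1 summed to between 6167 and 9470 CPM (counts scaled to a fixed library size) per library. Markers of astrocytes summed to between 1509 and 5070 CPM and those of oligodendrocytes to between 1557 and 2889 CPM, while those of microglia were between 1.5 and 6.35 CPM in the separate libraries. Of the SIT libraries, the study compared 3 ELE and 2 sedentary ones and does not name the mice it left out. They were inferred from the mean counts in its gene lists. Of 24 possible subsets 1 matched 633 of 633 genes, and the next best matched 7. That subset leaves out the ELE mouse NT6.304 and the sedentary pair NT7.2.3 and NT7.2.4. Mitochondrial genes took 8.64% and 9.64% of the counts in those sedentary libraries and at most 0.523% in any other. In that sedentary pair the markers of inhibitory neurons summed to as much as 578 CPM and those of microglia to as much as 153 CPM, against at most 68.1 and 3.92 CPM in the other SIT sedentary libraries. The SIT values below are for the 5 libraries the study compared, unless all 8 are named. These 5 set ELE mice NT6.303, TG7.4.1 and TG7.4.2 against sedentary mice NT6.305 and NT6.306. No sedentary SIT mouse is numbered TG7.4, so that exercise and the series of mouse numbers cannot be fully told apart in any SIT value of ELE against sedentary mice.

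Levels differed among the 10 genes by more than an order of magnitude. Per kilobase of exon, Prkaca was highest, at 89.4 CPM per kilobase over the 12 separate libraries (range 83.5 to 92.3), above 97.4% of expressed genes. Crtc1, the neuronal member of its family, came next at 29.2 CPM per kilobase (25.8 to 33.0), and its level was above those of Crtc2 and Crtc3, at 4.01 (3.30 to 4.40) and 2.72 (2.25 to 3.09), in every library. Of the CREB family, Atf1 was at 4.15 (3.61 to 4.58), Creb1 at 3.32 (2.98 to 3.8) and Crem at 2.09 CPM per kilobase (1.80 to 2.42). Of the phosphodiesterases, Pde4b stood at 5.52 (3.92 to 8.27) and Pde4d at 1.86 CPM per kilobase (1.40 to 2.23), which did not overlap. Rps6ka3 was at 3.43 CPM per kilobase (2.78 to 4.34). In this order Prkaca and Crtc1 stood apart from the gene after them, and from Pde4b on each gene overlapped the next. Scaling by the longest transcript in place of all exons kept the ranks of the first 3 genes, while Rps6ka3 went from rank 6 to rank 10 and Creb1 from rank 7 to rank 5. Crem counts join all of its transcripts, those from its internal promoter for the repressor ICER included.

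**Figure D1:**
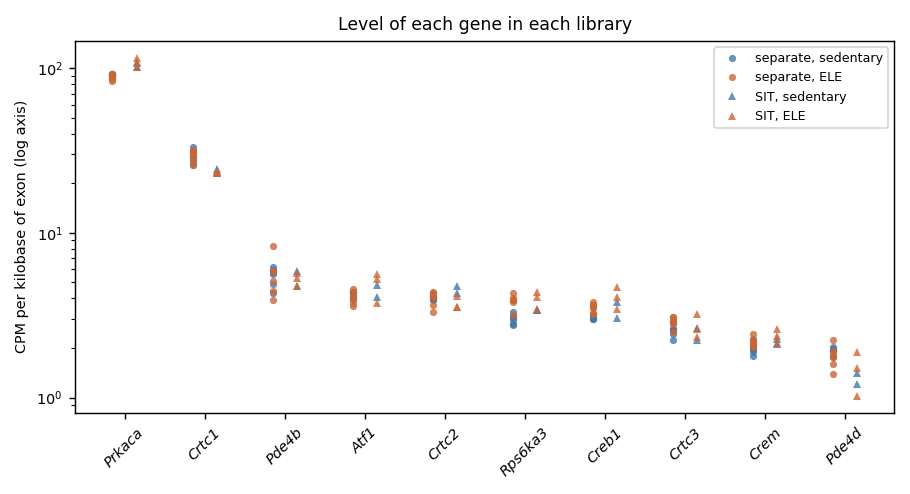
Level of each of the 10 genes in CPM per kilobase of exon, on a log axis, with 1 point per library (circles for the 12 separate libraries, triangles for the 5 SIT libraries the study compared, blue for sedentary and orange for ELE). Prkaca and Crtc1 lie above the other 8 genes in every library.

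The spread between libraries was small for Prkaca and larger for the phosphodiesterases. Over the 12 separate libraries the coefficient of variation was 3.11% for Prkaca, 8.62% for Creb1, 15.6% for Rps6ka3 and 20.6% for Pde4b. The lowest count of any of the 10 genes in any library was 532, for Crem, where counting error alone is 4.34% of the value, against a spread of 8.43% between the 12 libraries. Over the 12 separate and 5 SIT libraries, Top1 (Pearson r = 0.89) and Mdm2 (r = 0.88) were among the 3 genes whose log2 CPM followed Creb1 most closely, of 19934 expressed genes. Among the other 9 genes of the pathway r with Creb1 ran from −0.46 for Crtc1 to 0.66 for Atf1, with Crem at 0.65 and Rps6ka3 at 0.63. Groups of these libraries share their isolation and the start of their mouse numbers, so these r values describe this set and carry no test.

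The comparison of ELE with sedentary mice asked whether exercise early in life leaves a different set of translated mRNAs in these neurons. A gene was called at an unadjusted p under 0.05 and a change over 1.3-fold, the thresholds of the study, in edgeR's quasi-likelihood test, where the study itself used DESeq2. Rps6ka3 was the gene of the 10 that differed most clearly. It was higher in ELE mice in each hemisphere, by a log2 fold change of 0.31 ± 0.085 (SE) in the left and 0.42 ± 0.13 in the right hippocampus, and was called in the right. RSK2, which it encodes, is a kinase at the end of the Ras and ERK cascade that phosphorylates CREB, and loss of the human gene causes Coffin-Lowry syndrome with intellectual disability.

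In the left hippocampus Rps6ka3 stood at 31.7, 32.7 and 33.3 CPM in the ELE libraries and at 25.5, 25.7 and 27.5 CPM in the sedentary ones. In the right hippocampus the ELE libraries had 26.3, 32.4 and 36.1 CPM and the sedentary ones 23.1, 23.3 and 24.6 CPM. Each ELE library was above each sedentary library of its hemisphere, in both hemispheres. That order held for 67 of 18283 genes tested, or 0.366%. The p of edgeR's test was 0.00599 in the left and 0.00936 in the right, and adjusted over all genes it was 0.96 and 0.9998. With both hemispheres in 1 fit the log2 fold change was 0.36 ± 0.075 (95% interval 0.20 to 0.52), which is 1.29-fold and just under the threshold, with an unadjusted p of 0.000239 and an adjusted p of 0.63 from edgeR. An exact two-sided permutation test of log2 CPM within hemispheres gave p = 0.005, the smallest that 400 arrangements allow. With DESeq2 in place of edgeR the adjusted p over both hemispheres was 0.0236, and the call in the right hippocampus was the same.

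The call in the right hippocampus held in 5 of 6 fits that left out 1 library. Without the ELE library of mouse TG9.1.3, the highest, the log2 fold change was 0.31, under the fold threshold, with an unadjusted p of 0.0452. Over both hemispheres Rps6ka3 would have been called without ELE mouse TG9.2.1, the lowest ELE library (0.41), or without sedentary mouse TG9.1.2, the highest sedentary library (0.39). The left and right changes differed by 0.11 (95% interval −0.22 to 0.44, edgeR adjusted p = 0.99996 for the interaction).

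In the SIT libraries Rps6ka3 was at 28.8, 33.8 and 36.2 CPM in the 3 ELE libraries that the study compared and at 28.2 and 28.3 CPM in the 2 sedentary ones. The ELE values lay above the sedentary ones without overlap, and the log2 fold change of 0.22 ± 0.14 did not pass (95% interval −0.096 to 0.54, edgeR adjusted p = 0.96). The ELE library that the study left out had 51.3 CPM, the highest of all 20 libraries, and the sedentary pair left out had 32.6 and 32.8 CPM. With all 8 libraries the log2 fold change was 0.31 ± 0.18 (adjusted p = 0.61). The change in the SIT libraries and the change over the separate ones differed by −0.14 (95% interval −0.45 to 0.17, edgeR adjusted p = 0.99).

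**Figure D2:**
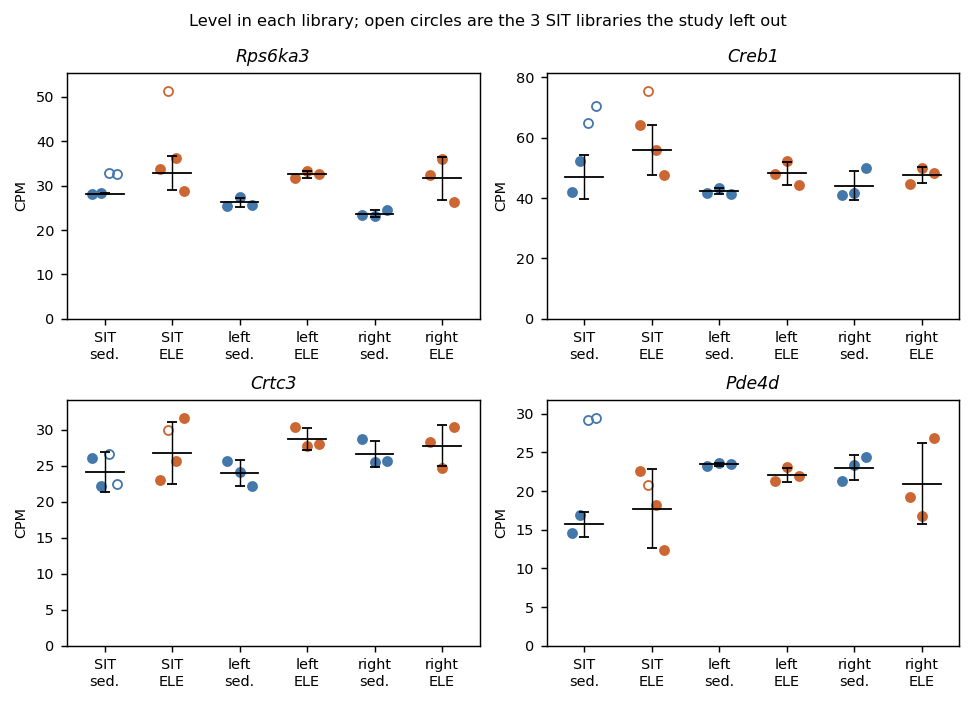
CPM of Rps6ka3, Creb1, Crtc3 and Pde4d in each of the 20 libraries by group (sed., sedentary; blue, sedentary; orange, ELE), on linear axes from 0. Bars are the mean ± SD of the filled points, and open circles are the 3 SIT libraries that the study left out. Rps6ka3 is higher in each left and right ELE library than in the sedentary libraries beside it, and the open circles of Creb1 and Pde4d lie above the filled points of SIT sedentary mice.

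The other 9 genes gave smaller differences over both hemispheres. Of the 10 genes, 0 were called in the left hippocampus, against 2.12% of all 17750 genes tested, and 1 (Rps6ka3) was called in the right, against 2.00% of 17570. In the 2 hemispheres together 0 were called, against 2.00% of 18283 genes, and in the SIT libraries 0, against 3.73% of 18238. With edgeR and the filter on low counts 0 genes reached an adjusted p under 0.05 in the SIT, left and right comparisons, and 1 did over both hemispheres, which was not among the 10. Without the filter 105, 0, 27 and 3 did. With DESeq2, 14, 0 and 14 genes reached it in the SIT, left and right comparisons, and 11 over both hemispheres, of which Rps6ka3 was 1. The number of the 10 called in each comparison was the same with DESeq2. At an unadjusted p under 0.05 alone, Rps6ka3 and Crtc3 were higher in the left (1.99% of all genes were higher at that p), Rps6ka3 in the right (1.21%), and Rps6ka3 and Creb1 over both hemispheres (2.46%). In the SIT libraries 0 of the 10 had a p under 0.05 with edgeR or with DESeq2, against 5.48% of all genes with edgeR. Groups did not overlap for 5 of the 10 genes in the left hippocampus (Rps6ka3, Creb1 and Crtc3 higher in ELE, Prkaca and Pde4d lower), for 1 in the right and for 2 in the SIT libraries. For all genes the share was 10.8% in the left, 7.69% in the right and 22.1% in the SIT libraries.

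Creb1, the factor that gives the pathway its name, was higher in ELE mice by less than 1.3-fold in each comparison. On the left it stood at 44.4, 48.0 and 52.2 CPM in ELE and at 41.5, 41.8 and 43.4 CPM in sedentary libraries. On the right it stood at 44.7, 48.5 and 49.98 CPM in ELE and at 41.0, 41.7 and 49.8 CPM in sedentary libraries. The left groups did not overlap, whereas in the right the sedentary library of TG9.2.3 reached the ELE range. The log2 fold change was 0.19 ± 0.088 in the left (95% interval −0.015 to 0.39), 0.11 ± 0.11 in the right (−0.13 to 0.35) and 0.15 ± 0.066 over both (0.0086 to 0.29). Over both, edgeR gave an unadjusted p of 0.0390 and an adjusted p of 0.91. The exact permutation test over both gave p = 0.04. Leaving out 1 library at a time moved the value over both from 0.12 to 0.20 and its p from 0.00599 to 0.0905. The value moved from 0.12 to 0.24 in the left, and from 0.063 (without TG7.3.3) to 0.21 (without TG9.2.3) in the right.

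In the SIT libraries Creb1 was at 47.6, 56.0 and 64.2 CPM in ELE and at 41.9 and 52.3 CPM in sedentary libraries, which overlapped, with a log2 fold change of 0.25 ± 0.15 (95% interval −0.094 to 0.59). It moved to 0.097 without NT6.305, 0.14 without NT6.303 and 0.42 without NT6.306, and without TG7.4.2 it was 0.35 with an unadjusted p of 0.0306 in edgeR's fit. The libraries left out by the study were higher than these, at 75.4 CPM in ELE and at 64.9 and 70.6 CPM in sedentary mice. With all 8 libraries the log2 fold change was 0.096 ± 0.19 (edgeR adjusted p = 0.89).

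Crem and Atf1, the other members of the CREB family, were not called in any comparison. Crem gave log2 fold changes of 0.20 ± 0.13 in the left, 0.053 ± 0.14 in the right and 0.11 ± 0.17 in the SIT libraries (0.21 ± 0.15 with all 8), with 95% intervals that reached from −0.27 to 0.49 in the widest case. Atf1 gave 0.075 ± 0.12 in the left and −0.15 ± 0.13 in the right hippocampus, with a 95% interval over both of −0.22 to 0.14.

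Among the co-activators, Crtc3 had the largest difference over both hemispheres. Crtc3 stood in the left hippocampus at 27.7, 28.1 and 30.5 CPM in ELE and at 22.1, 24.1 and 25.7 CPM in sedentary libraries, with no overlap and a log2 fold change of 0.26 ± 0.097 (95% interval 0.036 to 0.48, edgeR adjusted p = 0.96). Its unadjusted p of 0.0280 in edgeR's fit went with a change under 1.3-fold. In the right hippocampus the ELE libraries had 24.7, 28.3 and 30.4 CPM and the sedentary ones 25.5, 25.7 and 28.8 CPM. These overlapped, and the log2 fold change was 0.062 ± 0.12. It moved to −0.013 without TG9.2.1 and to 0.14 without TG9.1.3. Without any of TG7.3.2, TG9.1.2 or TG9.2.4 the p in the left hippocampus was above 0.05, with values of 0.21, 0.26 and 0.21. The changes in the hemispheres differed by −0.20 (95% interval −0.51 to 0.12), so that a difference between left and right was not shown.

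Crtc1, the most abundant of the 3 co-activators, had a log2 fold change over both hemispheres of −0.016 ± 0.071, and its 95% interval of −0.17 to 0.14 lay within 1.3-fold in either direction. Crtc2 had −0.037 ± 0.083 (95% interval −0.21 to 0.14). In the SIT libraries Crtc2 was at 14.4, 14.5 and 16.9 CPM in ELE and at 17.7 and 19.4 CPM in sedentary libraries, with no overlap and a log2 fold change of −0.28 ± 0.16 (95% interval −0.64 to 0.075). With all 8 SIT libraries, where the ELE library left out had 19.3 CPM, it was −0.11 ± 0.15 (edgeR adjusted p = 0.83).

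Prkaca had the narrowest interval of the 10 genes, with a log2 fold change over both hemispheres of −0.034 ± 0.044 (95% interval −0.13 to 0.061). The phosphodiesterases had the widest. Pde4b gave 0.20 ± 0.17 in the left and −0.17 ± 0.16 in the right hippocampus, and the difference of −0.37 between them had a 95% interval of −0.94 to 0.21. Leaving out 1 library moved Pde4b from −0.026 (without TG9.1.4) to 0.34 (without TG7.3.2) in the left, and from −0.36 (without TG9.2.1) to −0.047 (without TG9.1.3) in the right, with no call. Pde4d gave −0.091 ± 0.090 in the left and −0.13 ± 0.17 in the right. In the right ELE group Pde4d ran from 16.8 CPM in TG9.1.3 to 26.8 CPM in TG9.2.1, around the sedentary range of 21.3 to 24.4 CPM. Without TG9.2.1 the log2 fold change of Pde4d was −0.36 in the right and −0.21 over both hemispheres (unadjusted p of 0.0338 and 0.0205 in edgeR's fits, neither called), and without TG9.1.3 it was 0.0015 in the right and −0.049 over both.

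**Figure D3:**
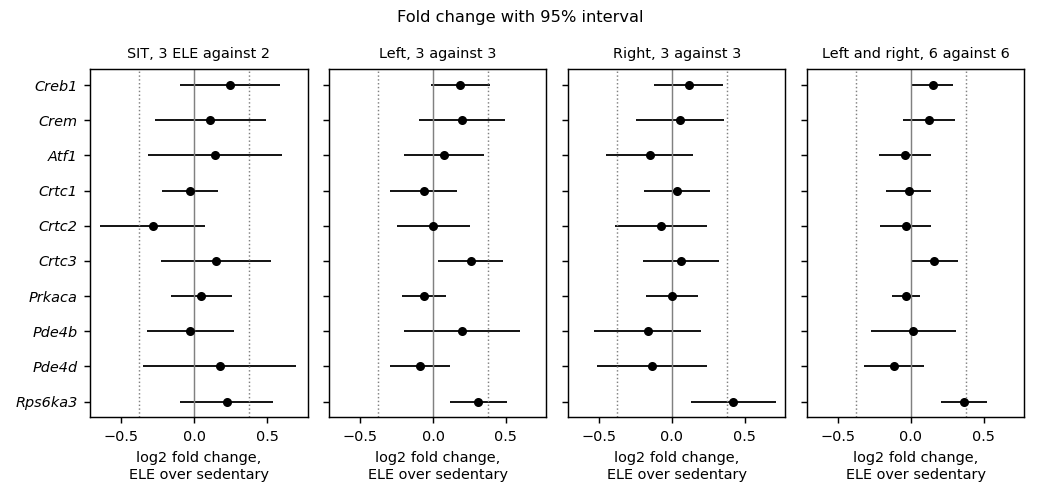
Log2 fold change of ELE over sedentary mice for the 10 genes in the SIT, left and right libraries and over both hemispheres, with 95% intervals from edgeR's fit (horizontal bars). Dotted lines mark a change of 1.3-fold in either direction. The interval of Rps6ka3 lies above 0 in the left, in the right and over both, and that of Creb1 does so over both alone.

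A difference between the hemispheres in the effect of exercise was not shown for any of the 10 genes. In the interaction test 0 of 10 were called, against 2.21% of 18810 genes, and 0 had a p under 0.05 with edgeR or with DESeq2, against 2.60% of all genes with edgeR. The smallest p of the 10 was 0.182, for Atf1. Between the SIT and the separate libraries, the effect of exercise differed for 0 of the 10 at an unadjusted p under 0.05 with either tool, against 5.12% of 20345 genes with edgeR. The median log2 fold change of the 10 genes was 0.13 in the left, 0.016 in the right and 0.13 in the SIT libraries, beside medians of 0.0035, −0.0049 and 0.0012 over all genes tested. Over both hemispheres 5 of the 10 were above 0 and 5 below.

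Markers of cell types were summed for 10 types and the mitochondrial genome, since a bulk capture cannot tell fewer cells of a type from less RNA per cell. In the left, in the right and over both hemispheres, the sums of ELE and sedentary libraries overlapped for all 11 lists. The oligodendrocyte list (Mog, Mbp, Mobp and Mag) overlapped narrowly in the left, at 2029 to 2218 CPM in ELE against 2178 to 2513 CPM in sedentary libraries, with the ELE range the lower one. The choroid plexus list ran from 17.3 to 974 CPM in ELE and from 28.8 to 1233 CPM in sedentary libraries over both hemispheres, with medians of 34.9 and 542 CPM. The blood list in the right was at 3.89 to 4.87 CPM in ELE and 4.76 to 11.1 CPM in sedentary libraries. In the SIT libraries the excitatory list was higher in ELE, at 6366 to 7147 against 6167 to 6265 CPM, and the inhibitory, microglial, choroid plexus and blood lists were lower. The part of these lists in the values above was not tested.

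The pathway around these genes was read from a list of 92 genes by role, the 10 included, of which 90 were tested in each exercise comparison. In the left hippocampus 2 of the 90 were called higher and 1 lower, in the right 4 and 1, in the SIT libraries 5 and 1, and over both hemispheres 3 and 3. The shares called, from 3.33% to 6.67%, stand beside the shares of 2.00% to 3.73% of all genes given above. With all 8 SIT libraries 10 of the 90 were called higher and 7 lower, against 7.84% of all 17531 genes. Leaving out 1 library moved the number of the 90 called to between 1 (without TG7.3.4, TG9.1.2 or TG9.1.4) and 7 (without TG9.2.2) in the left, and to between 2 (without TG9.1.3) and 9 (without TG9.1.1 or TG9.2.1) in the right. Over both hemispheres it gave 4 (without TG7.3.3 or TG9.1.4) to 9 (without TG9.1.1 or TG9.2.1). In SIT fits that kept 2 sedentary libraries it gave 2 higher and 2 lower (without NT6.303) to 10 higher and 3 lower (without TG7.4.2). The share of all genes called moved in these fits too. In the named order it was 1.23%, 1.43%, 2.98% and 4.51% in the left, and 2.30%, 3.61% and 2.76% in the right. Over both hemispheres it was 1.80%, 2.08%, 3.19% and 2.01%, and in the SIT libraries 4.41% and 6.3%. The part of these shifts in the pathway counts was not tested. The 9 adenylyl cyclases tested, the 6 subunits of protein kinase A and the 3 of its inhibitors had 0 calls in any of the 4 comparisons with edgeR, although 1 cyclase (SIT) and 1 subunit (left) had a p under 0.05. DESeq2, which kept 10 cyclases in the SIT, left and right comparisons, called 1 of them in the right and 0 genes of these roles otherwise.

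Sik1, a salt-inducible kinase that keeps CRTC proteins in the cytoplasm and is itself induced by cAMP, was higher in ELE over both hemispheres by a log2 fold change of 0.60 ± 0.17 (edgeR adjusted p = 0.90). It averaged 10.1 ± 2.54 CPM (SD) in the 6 ELE libraries and 6.71 ± 1.39 CPM in the 6 sedentary ones, which overlapped. In the left hippocampus it was called at 0.77 ± 0.26, a call lost without TG7.3.2 (0.57) or TG7.3.4 (0.61), and in the right it had 0.44 ± 0.21 and was not called, though it was with DESeq2 at the same size. Over both hemispheres it was called in each of 12 fits that left out 1 library. Among SIT libraries Sik1 had 0.41 ± 0.21 and was not called, nor was it with all 8 (0.61) or with NT6.304 alone added (0.78), while in the mice numbered NT6 it was called at 1.17. Sik2 and Sik3 gave 0.17 ± 0.12 and 0.043 ± 0.059 over both.

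The 16 CREB target genes held most of the other calls in the right and in the SIT libraries. Over both hemispheres 2 of them were called, beside 3 phosphodiesterases. The median log2 fold change of the 16 was 0.22 in the left, 0.25 in the right, 0.23 over both hemispheres and 0.23 in the SIT libraries, with 12, 13, 13 and 14 of the 16 above 0. These medians depended on single libraries. In the left the median was 0.065 without TG9.1.4, in the right 0.12 without TG9.1.3, 0.15 without TG7.3.1 and 0.39 without TG9.2.1, over both 0.14 without TG9.1.4, and in the SIT libraries 0.079 without NT6.303. Of the 16, 1, 3, 2 and 4 were called, all higher in ELE, against 2.12%, 2.00%, 2.00% and 3.73% of all genes. With 1 library left out the counts ran from 0 to 4 in the left, 1 to 6 in the right, 1 to 5 over both and 1 to 8 in the SIT libraries, in fits that called 1.23% to 6.3% of all genes. All these calls were higher in ELE but 1 of the 8, in the SIT fit without TG7.4.2. With DESeq2 0, 2, 2 and 3 were called, against 2.09%, 1.89%, 2.13% and 3.14% of all genes. With edgeR 0 of the 16 reached an adjusted p under 0.05, and with DESeq2 1 did, Nr4a1 in the SIT libraries. With edgeR and no filter on low counts, Nr4a1 and Arc did in the SIT libraries and Egr1 in the right. Most are immediate-early genes, which rise within minutes of neuronal firing.

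Egr1, a zinc-finger factor of that kind, was at 210 ± 52.2 CPM in ELE and 151 ± 23.1 CPM in sedentary libraries over both hemispheres, a log2 fold change of 0.47 ± 0.14 (edgeR adjusted p = 0.90). It was called in the right at 0.69 ± 0.21, and the call over both was lost without TG9.1.3 (0.33). Fos, which forms the AP-1 factor with Jun proteins, gave 1.12 ± 0.38 over both (adjusted p = 0.90), yet its 6 ELE libraries ran from 6.82 to 34.5 CPM, around the sedentary range of 4.96 to 14.4 CPM. The exact permutation test over both gave p = 0.055 for Fos, 0.02 for Egr1 and 0.015 for Sik1. In the separate hemispheres Fos was called at 1.301 in the left, lost without TG9.1.4 (0.36), TG9.1.2 (1.31) or TG7.3.4 (1.09), and at 0.94 in the right, lost without TG9.1.3 (0.53), TG9.2.1 (0.94), TG9.2.3 (0.74) or TG7.3.3 (0.69). In each of these losses the fold stayed past the threshold but that without TG9.1.4, and p did not pass. DESeq2 called Fos in neither hemisphere by itself.

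Nr4a1, an orphan nuclear receptor, was called in the right at 0.50 ± 0.18, a call lost without TG9.1.3 (0.26) or TG9.1.1 (0.36). It was also called in the SIT libraries at 0.74 ± 0.18 (edgeR adjusted p = 0.90), where ELE libraries had 54.5 to 87.3 CPM and sedentary ones 38.5 to 43.3 CPM and where each fit without 1 library kept the call. With all 8 SIT libraries it had 1.36. In the left hippocampus its log2 fold change was 0.031. Bdnf, which encodes the growth factor best known for its rise with running, was called in the SIT libraries at 0.44 ± 0.13, with 89.9 to 108 CPM in ELE and 64.3 to 77.9 CPM in sedentary libraries. That call was lost without NT6.303 (0.35) or NT6.305 (0.31). In the left and right hippocampus Bdnf had 0.33 ± 0.19 and 0.063 ± 0.17 and was not called. A SIT fit without NT6.305 or NT6.306 has 1 sedentary library, so that its spread comes from the ELE libraries alone. With the 5 SIT libraries Junb and Arc were called too, at 0.39 and 0.77. Both lost the call without NT6.303, at 0.25 for Junb and 0.31 for Arc. Without NT6.305 Junb had 0.34 and Arc 0.51. DESeq2 did not call Arc. In the left Junb and Arc had 0.19 and 0.55, and in the right 0.39 and 0.61, with no call. With all 8 SIT libraries Bdnf, Junb and Arc had 1.01, 1.99 and 2.50 and were called. With all 8 SIT libraries 9 of the 16 target genes were called higher and 1 lower, and the median of the 16 was 0.99, in a fit that called 7.84% of all genes. With NT6.304 alone added to the 5 libraries, 2 were called and the median was 0.88, where 2.82% of all genes were called. In the 4 SIT mice numbered NT6, 2 of each group, 9 of the 16 were called, all higher, with a median of 1.36, and 14 of the 90 pathway genes were called higher and 0 lower, against 6.74% of all genes. The part of the other cell types in the added sedentary pair was not tested.

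Other pathway genes were called in scattered roles. The phosphodiesterases Pde11a, Pde1c and Pde8a were lower in ELE over both hemispheres, by log2 fold changes of −0.49 ± 0.16, −0.41 ± 0.17 and −0.38 ± 0.14, at levels of 2.04 to 9.71 CPM in the group means. Pde11a kept the call in each of 12 fits without 1 library, Pde1c lost it in 3, at −0.38 to −0.36, and Pde8a in 5, at −0.38 to −0.27. The fold of Pde8a was just under the threshold in 3 of those 5 fits, where p passed. Of 4 fits with other settings, Pde11a was called in 4, Pde1c in 3 and Pde8a in 1. In single hemispheres Pde11a was called in the right at −0.64 and lost the call without TG9.2.1 (−0.49), TG9.2.3 (−0.54) or TG9.1.1 (−0.54). Pde1c was called in the left at −0.53 and lost the call in 5 of 6 such fits, at −0.57 to −0.44, and with DESeq2. In these losses p did not pass, and the fold did. In the SIT libraries the anchoring proteins of protein kinase A Akap12 and Akap10 were called at −1.18 ± 0.33 and 0.40 ± 0.15. Akap12 lost its call without NT6.305 (−0.82), and Akap10 without NT6.303 (0.34) or NT6.305 (0.27). With all 8 SIT libraries Akap12 had −1.52 and was called, and Akap10 had 0.2997 and was not. In the mice numbered NT6 neither was called, with −0.70 for Akap12. All 10 anchoring proteins lay between −0.18 and 0.24 in the left hippocampus and between −0.35 and 0.087 in the right, with 0 called in either, against 2.12% and 2.00% of all genes. Of the 7 CREB kinases, Rps6ka3 was the 1 gene called. Its relatives Rps6ka1, Rps6ka2, Rps6ka4, Rps6ka5 and Rps6ka6 lay between −0.076 and 0.14 over both hemispheres.

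**Figure D4:**
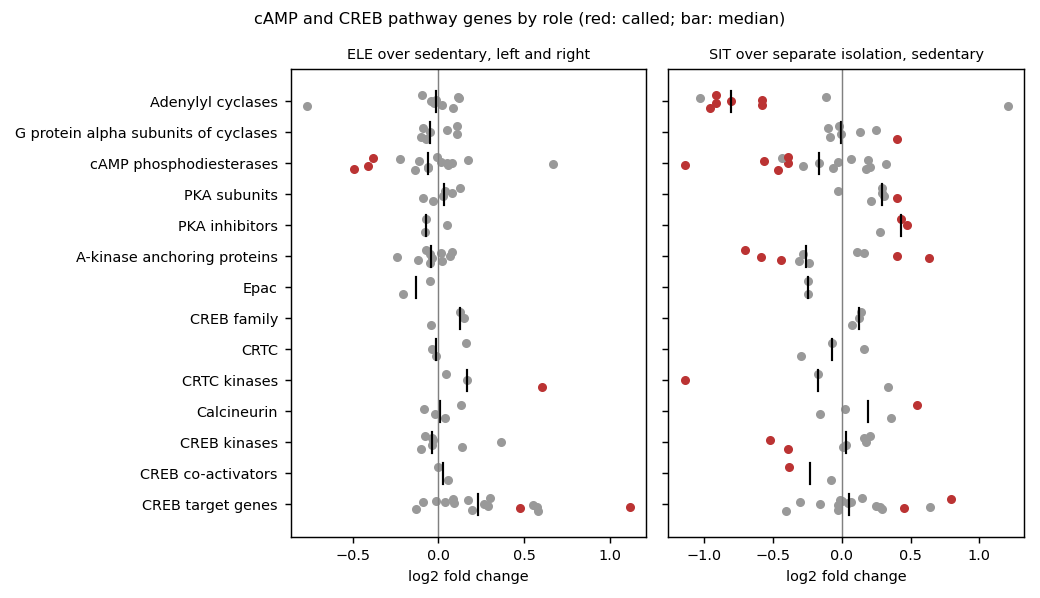
Log2 fold change of each tested gene of the cAMP and CREB pathway list by role, for ELE over sedentary mice in both hemispheres (left panel) and for SIT over separate isolation in sedentary mice (right panel). Points in red passed p under 0.05 and 1.3-fold, and the black bar is the median of the role. Adenylyl cyclases lie between −0.77 and 0.12 in the left panel and mostly below 0 in the right panel, with a median of −0.81.

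The isolation methods were compared in sedentary mice, 2 SIT libraries against 6 separate ones, to see whether the protocol bears on these genes. The SIT mice here are numbered NT6 and the separate ones TG, and SIT used both hippocampi, so that the protocol, the hippocampi taken and the series of mouse numbers cannot be told apart. Pde4d was lower in SIT, at 14.5 and 16.9 CPM against 21.3 to 24.4 CPM, a log2 difference of −0.57 ± 0.10 (edgeR adjusted p = 0.00445). It was the 1 gene of the 10 past the call rule, which 15.9% of 18911 genes passed. Crtc1 was lower by −0.30 ± 0.092 (259 and 274 against 289 to 369 CPM, adjusted p = 0.0496) and Prkaca higher by 0.21 ± 0.063 (254 and 267 against 216 to 230 CPM, adjusted p = 0.0431). These 3 of 10 genes had an adjusted p under 0.05, as did 13.6% of all genes. Of 8 fits that left out 1 library, Crtc1 and Prkaca kept that p in 1, without TG9.1.1, and Pde4d lost it in 1, without NT6.305 (−0.46, adjusted p = 0.0891), where 1 SIT library was left and the spread came from the separate ones.

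The result for Pde4d rests on which sedentary SIT libraries are taken. The 2 that the study left out had 29.2 and 29.4 CPM, above all separate libraries, and with all 4 the log2 difference was −0.047 ± 0.18 (edgeR adjusted p = 0.90). Creb1 went the other way, from 0.13 ± 0.10 to 0.41 ± 0.13 with all 4 (edgeR adjusted p = 0.057). Prkaca kept its value at 0.23 ± 0.057 (adjusted p = 0.0214), Crtc1 had −0.25 ± 0.090 (adjusted p = 0.0895), and Rps6ka3 had 0.29 ± 0.087 (adjusted p = 0.0497) in place of 0.18 ± 0.093. In the pathway list, 9 of 90 genes were called higher and 18 lower in SIT, a share of 30% beside the 15.9% of all genes given above. With all 4 SIT sedentary libraries 15 were called higher and 9 lower, against 16.4% of all 18086 genes, so that the balance of directions turned round. Of the adenylyl cyclases 6 of 9 were called, all lower in SIT, and they are named here after their values were seen as Adcy1, Adcy2, Adcy3, Adcy5, Adcy6 and Adcy9, at log2 differences of −0.96 to −0.58. With all 4 SIT sedentary libraries 6 of the 9 were called lower and 1 higher, and their median went from −0.81 to −0.53. Of the 3 inhibitors of protein kinase A 2 were called, both higher, and with all 4 SIT sedentary libraries 0 were. The 6 subunits of protein kinase A had a median of 0.29, and 4 of them had an adjusted p under 0.05, all higher. In the same libraries the excitatory and astrocyte marker sums were lower in SIT and the inhibitory, meningeal, blood and mitochondrial sums higher, without overlap, and their part in these values was not tested.

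All 10 genes are annotated as protein coding on GRCm38. Rps6ka3 (ENSMUSG00000031309.15) lies on the forward strand at chrX:159210307-159368244 and has 8322 bases of exon. Creb1 (ENSMUSG00000025958.14) lies on the forward strand at chr1:64532645-64604548 with 13742 bases of exon. Crtc3 (ENSMUSG00000030527.15) lies on the reverse strand at chr7:80586627-80688877, and Pde4d (ENSMUSG00000021699.17) spans chr13:108449948-109953461 on the forward strand with 20 annotated transcripts, more than any of the others except Crem with 39. The counts join all transcripts of a gene, so that which isoform of Pde4d, Pde4b or Crem was bound to ribosomes was not measured.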

How the data were processed

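The values come from 20 TRAP-seq libraries of hippocampus, 1 mouse each, in 6 groups. The authors aligned 100 base paired reads to GRCm38.p6 with STAR 2.7.3a, removed duplicates with Picard 1.87, counted read pairs on exons by strand in R 4.1.0, and deposited these counts, whole numbers per gene, as they were (45895097 to 65767802 per library). Columns carry mouse numbers, whose groups come from the study's list of mice. Libraries of 1 group differed by more than counting error (chi-square per gene at least 15.7 over 24 pairs), and p-values measure the spread between mice. A wild-type table of 24 columns was not used.

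Counts were scaled by TMM and filtered with filterByExpr. They were tested with edgeR 4.0.16 (quasi-likelihood, R 4.3.3), fitting only the libraries compared, with p adjusted by Benjamini-Hochberg over all genes tested. CPM are TMM-scaled over the 20 libraries. Single genes were tested by exact permutation of exercise within hemispheres, on log2 CPM with a pseudocount of 0.5. Symbols, exon lengths and coordinates come from GENCODE on GRCm38 (54587 of 55335 genes matched with version). Steps were checked on simulated counts. The alternatives were DESeq2 1.42.0 or its size factors, no filter, all 8 SIT libraries, SIT mice numbered NT6, a slightly higher fold threshold from the study's methods, a block, and leaving out each library. The fit of 4 ELE with 2 sedentary SIT libraries and the test of exercise by isolation were added after seeing the data.

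The 10 genes and the lists were chosen with earlier results of these data known. The genes named are the 10, the pathway genes called in an exercise comparison (at most 6 each, by p), and the 3 whose level followed Creb1 most closely. Of these 3, 1 is not reported here, nor are 2 of the marker genes, and the marker sums were taken without them.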

Additional observations from a re-analysis of the deposited data

Results flagged for a closer look

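The SIT groups of 4 libraries were searched for a library far from the others in each of the 10 genes, in 20 sets, where chance alone picks out about 1 in 20. Crtc1 stood out in SIT ELE mice, at 213 CPM in the library of NT6.304 against 258 to 265 CPM in the other 3. That library is the ELE one that the study left out, and it does not enter the SIT values of the 5 libraries. It also had the highest Rps6ka3 and Creb1 of all libraries, at 51.3 and 75.4 CPM. The effect of exercise differed for 0 of the 10 genes between hemispheres or between isolation methods at an unadjusted p under 0.05, against 2.60% and 5.12% of all genes.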

How the results depend on the processing

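With only the 4 SIT mice numbered NT6, 3 of the 10 genes were called, all higher in ELE, in place of 0: Rps6ka3 at 0.59, Creb1 at 0.57 and Pde4d at 0.47, each without an adjusted p under 0.05, in a fit that called 6.74% of all genes. Leaving out 1 library at a time gave 0 to 1 genes called in the right hippocampus and 0 to 1 over both hemispheres. In the other comparisons, and under the other alternatives, the count of the 10 genes called was as given. The genes called were not always the same, since with all 4 SIT sedentary libraries Creb1 took the place of Pde4d between isolation methods. No called value changed sign, and among 790 values of the 10 genes under the alternatives 44 changed sign, with 0 of 79 for Rps6ka3 and 13 of 79 for Pde4b. The count of all genes called ranged from 225 to 975 in the left (376 in the fit described), 311 to 719 in the right (351), 302 to 972 over both hemispheres (366), 357 to 1375 in the SIT libraries (681), 357 to 1047 for the interaction (416) and 2784 to 3727 between isolation methods (3016).

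The first part of the mouse number was tried as a block for pairing, since each hemisphere has 1 ELE and 1 sedentary mouse of TG7.3, TG9.1 and TG9.2. Deviations from group means correlated at 0.016 to 0.18 between such pairs in the left and at −0.09 to 0.21 in the right. Between mice of other numbers they correlated at −0.16 to 0.061 in the left and at −0.22 to 0.27 in the right. The numbers were not taken to pair mice in the fits described, though 3 such pairs per hemisphere cannot settle whether they do. Not every library correlated best with its own number, since TG9.1.4 in the left gave 0.016 with TG9.1.2 and 0.061 with TG9.2.4. With the block, Rps6ka3 had 0.31 in the left, 0.41 in the right (called) and 0.36 over both hemispheres, and the calls among the 10 genes were the same, while Fos (1.03) and Pde1c (−0.54) in the left lost theirs by p and Pde8a over both (−0.37) by fold. The design leaves 2 to 3 mice per group, and only changes larger than the intervals given can be seen.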
